A study of Mus musculus with 16 samples.

Results

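Enzymes that attach glutathione, glucuronic acid or sulfate to drugs, hormones and other small molecules were followed in mouse liver. The set held every probe set whose annotated gene symbol begins with Gsta, Gstm, Gstp, Gstt, Gstk, Gsto or Gstz, with Mgst, with Ugt or with Sult, followed by a digit. This rule used names only and no measured value, and it took 58 of 22626 probe sets. The set itself was chosen with earlier results of these data known. The 58 comprised 25 probe sets of the cytosolic and mitochondrial glutathione transferases (Gst), 5 of the microsomal glutathione transferases (Mgst), 16 of the UDP-glucuronosyltransferases (Ugt) and 12 of the sulfotransferases (Sult). They stood for 41 genes with a probe set of their own, and 4 further probe sets were annotated to several genes of a family at once. Those were 3 probe sets shared by 8 Ugt1a genes and 1 shared by Ugt2a1 and Ugt2a2, and they were counted in their families without naming a gene.

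Liver RNA of male FvB/n mice had been hybridised to 16 Affymetrix arrays in 2 experiments of 8. In the first experiment 4 arrays came from AP20187-treated TTR::Fv2E-PERK mice and 4 from untreated TTR::Fv2E-PERK mice, so all 8 carried the transgene (labelled high expression), which fuses the PERK kinase domain to drug-binding domains behind the liver-active transthyretin promoter. AP20187 is a compound that brings these fusion proteins together and thereby starts PERK signalling. The second experiment held 2 arrays for each of 4 groups, Alb::GC on a high fat diet (HFD), wildtype on HFD, Alb::GC on a low fat diet (LFD) and wildtype on LFD, where Alb::GC places an active fragment of the eIF2α phosphatase subunit GADD34 behind the albumin promoter. The labels give no ages, doses, times or diet compositions. They also do not say whether the arrays of a group came from separate mice, so p-values refer only to the spread among them, which may be technical. Every value is a deposited ratio around 1 without an absolute level, and changes are log2 differences with standard errors (SE). The 2 experiments were scaled apart, so each was compared only within itself. In whole liver, fewer cells of a type and less RNA per cell cannot be told apart.

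Conjugation is the second phase of drug metabolism, in which a polar group is coupled to a compound that can then be exported into bile or urine. Glutathione transferases couple the tripeptide glutathione to electrophiles. The alpha, mu and pi classes (Gsta, Gstm, Gstp) are abundant in rodent liver, and the microsomal forms sit in membranes. UDP-glucuronosyltransferases are enzymes of the endoplasmic reticulum that transfer glucuronic acid from UDP-glucuronate. The Ugt1a enzymes are made from 1 locus by splicing different first exons to shared later exons, and Ugt1a1 handles bilirubin. In contrast, Ugt2b enzymes come from separate genes and handle steroids and bile acids among other substrates. Sulfotransferases take sulfate from the donor PAPS, and Sult1e1 inactivates estrogens. Many of these genes are classical targets of the xenobiotic receptors and of the oxidative stress factor NRF2 (Nfe2l2), which binds antioxidant response elements.

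The genes lie partly in clusters. In the RefSeq annotation of GRCm38.p6, the 7 Gstm genes follow each other without another protein-coding gene between them, in the order Gstm5, Gstm7, Gstm6, Gstm3, Gstm2, Gstm1 and Gstm4, and all 7 had probe sets. A second run of 13 neighbouring genes goes through Ugt2b and Ugt2a genes to Sult1b1, Sult1d1 and Sult1e1, and 11 of them were covered by the probe sets studied. The promoter windows shown here reach from 250 bases before to 50 bases after a RefSeq start and are written on the strand of the gene, 5′ to 3′. Gstm4 and Gstm5 are shown because the Gstm run moved together with AP20187, and Gsta3 because it moved in opposite directions in the 2 experiments. In these and in Sult1d1, capitals mark matches to the motifs named afterwards.
Gstm4: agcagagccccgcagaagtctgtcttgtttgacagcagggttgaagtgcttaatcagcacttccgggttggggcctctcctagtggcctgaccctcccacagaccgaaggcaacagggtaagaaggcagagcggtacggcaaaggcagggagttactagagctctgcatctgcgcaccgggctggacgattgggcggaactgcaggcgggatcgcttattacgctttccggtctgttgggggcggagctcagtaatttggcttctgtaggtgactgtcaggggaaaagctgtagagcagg
Gstm5: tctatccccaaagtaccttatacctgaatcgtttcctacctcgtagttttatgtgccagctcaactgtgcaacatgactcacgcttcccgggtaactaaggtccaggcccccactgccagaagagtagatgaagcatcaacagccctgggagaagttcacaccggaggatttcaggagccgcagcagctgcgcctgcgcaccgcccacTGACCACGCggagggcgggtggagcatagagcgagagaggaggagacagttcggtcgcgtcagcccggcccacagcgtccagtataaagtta
Gsta3: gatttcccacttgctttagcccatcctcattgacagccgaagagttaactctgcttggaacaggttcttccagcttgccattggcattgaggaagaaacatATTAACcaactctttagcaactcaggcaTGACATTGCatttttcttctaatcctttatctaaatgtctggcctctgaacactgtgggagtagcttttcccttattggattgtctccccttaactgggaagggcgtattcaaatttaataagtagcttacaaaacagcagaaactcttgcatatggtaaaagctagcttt
The windows are chr3:108044810-108045109 on the minus strand for Gstm4, chr3:107895604-107895903 on the plus strand for Gstm5 and chr1:21240335-21240634 on the plus strand for Gsta3. Ugt2b37 and Ugt2b38 are shown because they had the largest diet changes of the set, and Sult1d1 because it lies in the same run and changed the other way. In the Ugt2b pair, capitals mark the bases that differ between the 2 windows in their overlap.
Ugt2b37: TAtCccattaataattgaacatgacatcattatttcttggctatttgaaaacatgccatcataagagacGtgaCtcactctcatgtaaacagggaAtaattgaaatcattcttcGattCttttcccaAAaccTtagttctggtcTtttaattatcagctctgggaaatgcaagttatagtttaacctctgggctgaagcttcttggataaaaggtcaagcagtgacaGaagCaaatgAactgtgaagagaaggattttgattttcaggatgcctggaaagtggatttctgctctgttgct
Ugt2b38: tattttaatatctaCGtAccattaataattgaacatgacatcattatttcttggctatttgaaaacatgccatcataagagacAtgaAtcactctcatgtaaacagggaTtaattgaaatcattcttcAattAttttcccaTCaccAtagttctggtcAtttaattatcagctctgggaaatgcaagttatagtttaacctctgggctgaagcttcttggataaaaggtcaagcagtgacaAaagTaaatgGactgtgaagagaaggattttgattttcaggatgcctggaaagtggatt
Sult1d1: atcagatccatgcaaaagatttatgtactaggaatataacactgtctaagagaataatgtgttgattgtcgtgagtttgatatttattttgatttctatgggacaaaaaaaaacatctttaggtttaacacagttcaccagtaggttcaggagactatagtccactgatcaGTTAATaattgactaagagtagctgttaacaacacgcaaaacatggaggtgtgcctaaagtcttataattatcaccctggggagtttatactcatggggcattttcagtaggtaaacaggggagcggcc
These windows are chr5:87254739-87255038, chr5:87424154-87424453 and chr5:87568957-87569256, all on the minus strand. Without gaps, the Ugt2b37 and Ugt2b38 windows shared 271 of 286 overlapping bases (94.8%) and differed at 15, whereas Gstm4 and Gstm5 shared 93 of 276 bases (33.7%) at their best offset. The deposited files hold no probe sequences, so how far the probe sets of such close relatives separate the transcripts was not tested.

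Each window was searched on both strands for 4 motifs, and in the 6 windows printed no match overlapped another. Of the 41 genes with a probe set of their own 36 had a window, and 1 window a gene was used. The windows of all mouse genes were not reduced to 1 a gene, so the shares compared below differ in unit. The antioxidant response element core TGACNNNGC was found in 3 of 36 member windows, those of Gsta3, Gstm5 and Mgst1 (8.33%), and in 12.4% of all 32851 mouse promoter windows of that length. The composite element TGATGNAA, bound by ATF4 with C/EBP proteins, was found in the Sult1e1 window alone (2.78%), against 3.97% of all windows. A hepatocyte HNF1 site core, GTTAAT, occurred in Gsta3, Sult1a1, Sult1d1, Ugt2a3 and Ugt3a1 (13.9%, against 7.1% of all windows). The STAT5 element TTCNNNGAA, which reads the same on both strands, occurred in Mgst2 and Sult3a1 (5.56%, against 8.3%). Gstm5 was thus the only 1 of the 7 Gstm windows with any of these letters. A match describes the sequence and shows no binding.

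Replicate arrays correlated at 0.442 to 0.658 over all log2 ratios. Over the 58 probe sets, AP20187 replicate 3 correlated at 0.217 to 0.362 with the other AP20187 arrays, which correlated at 0.56 to 0.793 with each other. The source field of AP20187 replicate 4 is a single letter, and that of LFD wildtype replicate 2 names both genotypes; the descriptions of both were followed. Calls lost or gained without 1 of these 3 arrays are named with the results. The log2 difference between 3′ and 5′ control probe sets bears on RNA integrity, but only relative to whatever the ratios were taken against. For beta-actin it lay at -0.71 to -0.33 in HFD arrays and at -0.16 to 0.21 in LFD arrays. For Gapdh it lay at -0.31 to -0.15 in HFD arrays and at 0.04 to 0.22 in LFD arrays. In the other experiment the beta-actin difference lay at -0.04 to 0.15 in AP20187 arrays and at -0.18 to -0.02 in untreated arrays. The Gapdh difference lay at -0.14 to 0.19 in AP20187 arrays and at -0.06 to -0.01 in untreated arrays. The part of these differences in the results was not tested.

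AP20187 was followed by lower ratios of most glutathione transferases and glucuronosyltransferases, while calls among the sulfotransferases stayed near the shares of all probe sets. Of the 58 probe sets 36 fell and 2 rose, where 20.4% and 13.7% of all 22626 probe sets did so, 34.1% in all (limma, Benjamini-Hochberg adjusted p under 0.05 over all probe sets). By gene entry, 26 of 43 had a probe set that fell and 1 had probe sets that rose. The 4 AP20187 arrays and the 4 untreated arrays did not overlap in 39 of the 58, where 35% of all probe sets did not. The median change was -0.60 over the 58 and -0.13 over all probe sets. By class, 20 of 25 Gst, 2 of 5 Mgst, 12 of 16 Ugt and 2 of 12 Sult probe sets fell. The 2 rises were both of 1 sulfotransferase gene, Sult1d1.

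**Figure D1:**
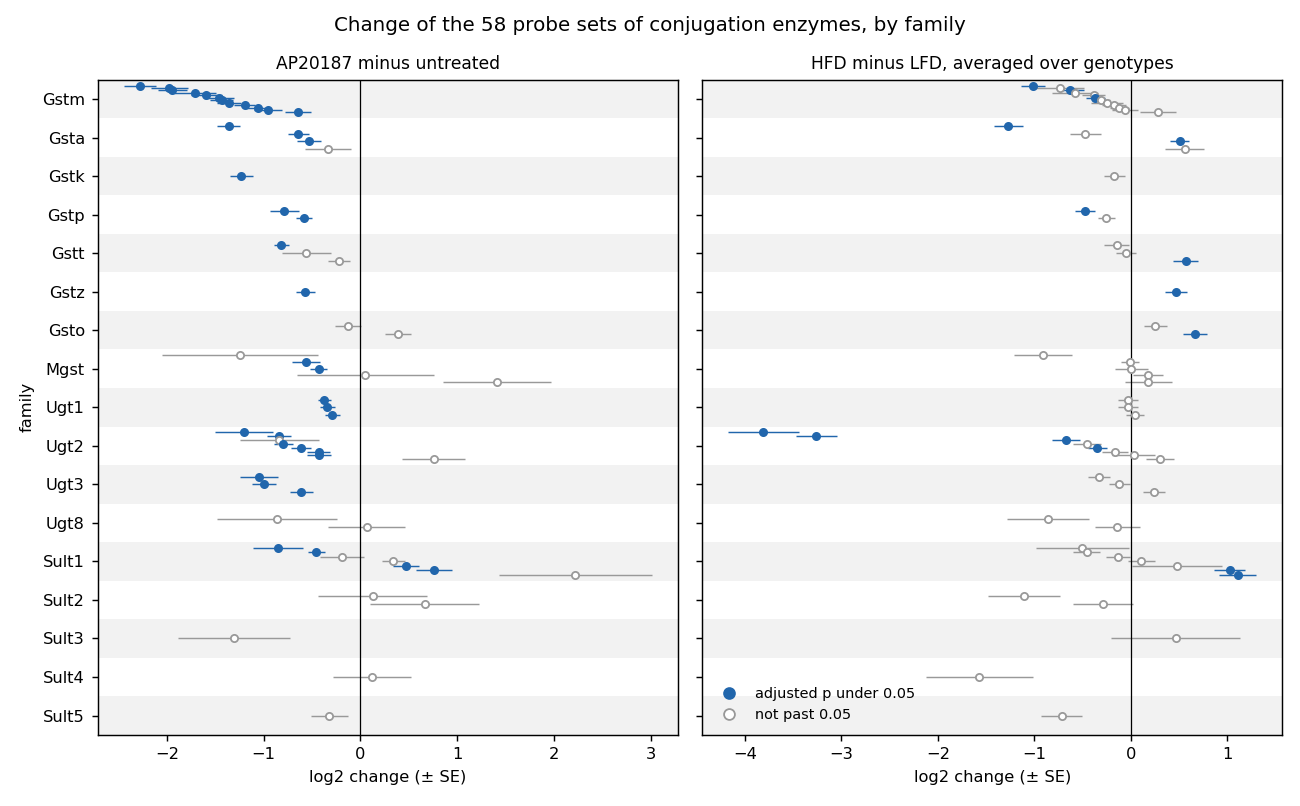
Log2 change (x axis, ± SE) of each of the 58 probe sets, grouped by family (y axis), for AP20187 minus untreated (left) and for HFD minus LFD averaged over genotypes (right). Filled points passed an adjusted p of 0.05 in limma; all 12 Gstm points lie below 0 and are filled on the left, while Ugt2b37 and Ugt2b38 stand apart at -3.26 and -3.81 on the right.

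The mu class moved as a block. All 12 Gstm probe sets, covering all 7 genes of the run, fell with AP20187 and had no overlap between the groups, and 10 of them fell at least 2-fold. Their median change was -1.45, with a range of -2.28 to -0.65. Gstm4 had ratios of 0.37, 0.38, 0.49 and 0.55 in AP20187 livers, against 2.53, 2.23, 1.87 and 2.81 in untreated livers. Every AP20187 array thus lay far below every untreated array, and Gstm4 fell by 2.28 ± 0.17 (limma, adjusted p = 9.97e-05). Gstm7 had ratios of 1.05, 0.95, 1.28 and 0.72 in AP20187 livers, against 4.11, 3.73, 3.87 and 4.30 in untreated livers. This probe set of Gstm7 fell by 1.97 ± 0.19 (limma, adjusted p = 0.000215) and its other probe set by 0.65 ± 0.14 (limma, adjusted p = 0.00734), so that they agree in direction and not in size.

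Gstm1, which encodes the major mu class enzyme of mouse liver, was covered by 4 probe sets, and all of them fell, by 1.06 to 1.94. On the probe set with the largest fall, Gstm1 had ratios of 0.69, 0.61, 0.95 and 0.69 in AP20187 livers, against 3.0, 2.83, 2.58 and 3.37 in untreated livers. AP20187 replicate 3 was the highest of the AP20187 arrays on each of the 4 probe sets and still lay below all untreated arrays. Without it the Gstm1 changes were -2.07 to -1.15. Gstm3 fell by 1.71 ± 0.22 and 1.46 ± 0.15 on its 2 probe sets and Gstm6 by 1.43 ± 0.12 (limma, adjusted p = 0.000704, 0.000318 and 0.00013). Gstm5 fell by 1.20 ± 0.11 and Gstm2 by 0.95 ± 0.14 (limma, adjusted p = 0.000178 and 0.00151). No Gstm call was lost with any of the 8 arrays left out or with either rescaling of the arrays.

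**Figure D2:**
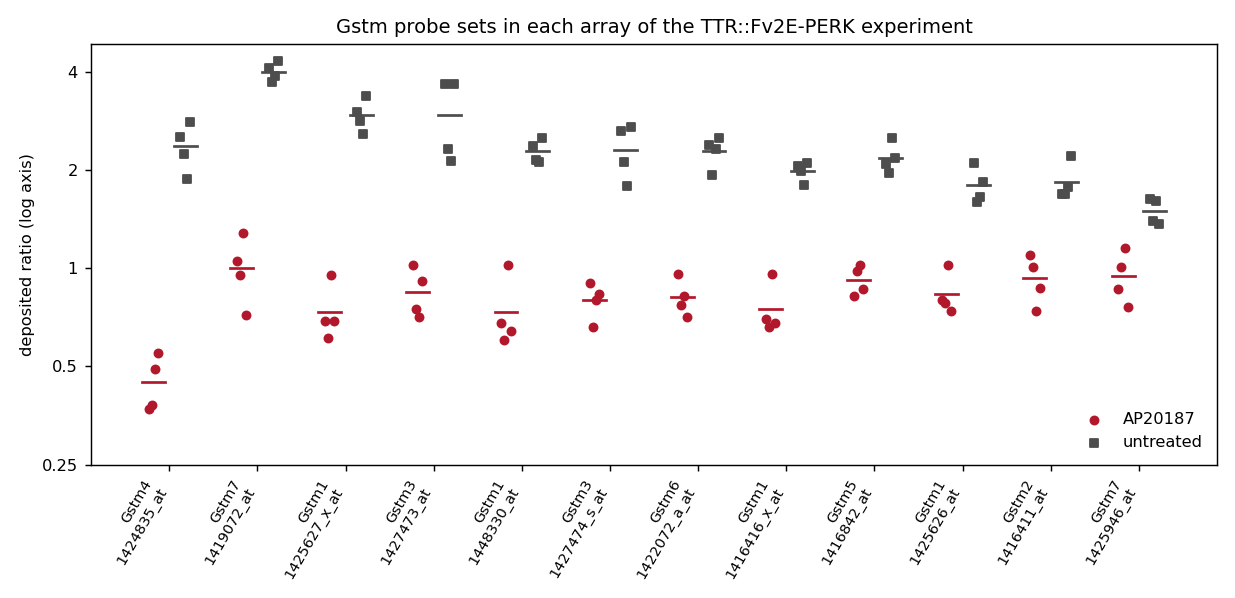
Deposited ratios (y axis, log scale) of the 12 Gstm probe sets (x axis, ordered by change) in the 4 AP20187 arrays (circles, left of each pair) and the 4 untreated arrays (squares, right); short lines are group means. Gstm4 lies at 0.37 to 0.55 in AP20187 arrays and at 1.87 to 2.81 in untreated arrays, and no probe set shows overlap.

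Among the other glutathione transferases, Gsta4, an alpha enzyme that clears the lipid peroxidation product 4-hydroxynonenal, had ratios of 1.13, 0.99, 1.01 and 0.99 in AP20187 livers, against 3.24, 2.43, 2.56 and 2.73 in untreated livers. It fell by 1.36 ± 0.12 (limma, adjusted p = 0.000144). Gstk1, the enzyme of mitochondria and peroxisomes, had ratios of 1.24, 0.95, 0.96 and 1.04 in AP20187 livers, against 2.78, 2.22, 2.64 and 2.43 in untreated livers. It fell by 1.23 ± 0.12 (limma, adjusted p = 0.000249), and the groups of both genes were well apart. Gstt1, a theta class enzyme, fell by 0.82 ± 0.08 (limma, adjusted p = 0.000254). The pi class members Gstp1 and Gstp3 fell by 0.79 ± 0.15 and 0.59 ± 0.08 (limma, adjusted p = 0.00486 and 0.00112). Gstz1, which also isomerises maleylacetoacetate in tyrosine breakdown, fell by 0.57 ± 0.10 (limma, adjusted p = 0.00276). Both probe sets of Gsta3 fell, by 0.64 ± 0.11 and 0.53 ± 0.12 (limma, adjusted p = 0.00276 and 0.0106), but the second did not pass after quantile normalization (limma, adjusted p = 0.116).

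The other 5 Gst probe sets did not pass. Gsta2 stood at -0.33 ± 0.24 (limma, adjusted p = 0.328), with AP20187 replicate 3 at 0.50 and the other AP20187 arrays at 0.99 to 1.01, and without that array it stood at -0.10. Gstt2 and Gstt3 stood at -0.22 ± 0.11 and -0.56 ± 0.25 (limma, adjusted p = 0.171 and 0.132). Gsto1, an omega class enzyme that reduces dehydroascorbate and methylated arsenic, had probe sets at 0.39 ± 0.13 and -0.13 ± 0.13 (limma, adjusted p = 0.0565 and 0.519). The larger of these passed without AP20187 replicate 3 (0.47, limma, adjusted p = 0.0255). Of the microsomal enzymes, Mgst1 fell by 0.43 ± 0.09 on 1 probe set (limma, adjusted p = 0.00662) and stood at 1.41 ± 0.56 on the other (limma, adjusted p = 0.0898). The 2 Mgst1 probe sets thus pointed in opposite directions, and on the second untreated replicate 1 had 0.11 while the other untreated arrays had 0.74 to 0.95. Without untreated replicate 1 that probe set passed as a rise of 0.78 (limma, adjusted p = 0.0072). Mgst3 fell by 0.56 ± 0.14 on 1 of its 2 probe sets (limma, adjusted p = 0.0185), a call lost after quantile normalization, and Mgst2 stood at 0.05 ± 0.71.

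The glucuronosyltransferases fell by smaller amounts. All 3 Ugt1a probe sets, which detect the shared locus, fell, by 0.29 to 0.37. The strongest of them by p had ratios of 0.99, 0.94, 1.01 and 0.97 in AP20187 livers, against 1.24, 1.31, 1.25 and 1.32 in untreated livers. The groups were separate and tight, and the change was -0.37 ± 0.07 (limma, adjusted p = 0.00396). The 2 other Ugt1a probe sets did not pass after quantile normalization, which moved the median of all probe sets to -0.06 (limma, adjusted p = 0.161 and 0.0804). The first of these also lost its call without AP20187 replicate 2 or untreated replicate 4.

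In the Ugt2 family 6 of 8 probe sets fell. Ugt2b5 had ratios of 0.97, 0.88, 1.09 and 0.91 in AP20187 livers, against 1.75, 1.62, 1.57 and 1.89 in untreated livers, a fall of 0.80 ± 0.10 (limma, adjusted p = 0.000581). Ugt2b1 fell by 0.85 ± 0.12 and Ugt2a3 by 0.62 ± 0.10 (limma, adjusted p = 0.00137 and 0.00261). The probe set shared by Ugt2a1 and Ugt2a2, enzymes first known from the olfactory epithelium, fell by 1.20 ± 0.30 (limma, adjusted p = 0.0149). Ugt2b34 fell by 0.42 ± 0.12 and 0.43 ± 0.12 on its 2 probe sets (limma, adjusted p = 0.0291 and 0.0237), and the first lost its call without AP20187 replicate 1, 2 or 4 or without any 1 of the untreated arrays, the highest adjusted p being 0.0864 (limma). The second lost its call without AP20187 replicate 2 or 4 or without untreated replicate 1, 3 or 4. Ugt2b37 and Ugt2b38, the pair with near-identical promoter windows, did not pass: Ugt2b37 was at 0.76 ± 0.33 and Ugt2b38 at -0.84 ± 0.41 (limma, adjusted p = 0.116 and 0.155). AP20187 replicate 3 had the highest AP20187 ratio of both, at 2.24 for Ugt2b37 and 1.77 for Ugt2b38, and without it Ugt2b38 passed at -1.23 (limma, adjusted p = 0.0123).

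Ugt3a1, whose human counterpart uses N-acetylglucosamine in place of glucuronic acid, fell by 1.0 ± 0.12 and 1.05 ± 0.20 on its 2 probe sets, and Ugt3a2 by 0.61 ± 0.12 (limma, adjusted p = 0.000645, 0.00424 and 0.00534). On the first probe set Ugt3a1 had ratios of 1.17, 0.84, 0.99 and 1.01 in AP20187 livers, against 1.90, 1.96, 1.92 and 2.41 in untreated livers. No array of a group reached the other group. Ugt8a, the galactosyltransferase of myelin lipids, did not pass on either probe set, at -0.86 ± 0.62 and 0.06 ± 0.40.

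Only Sult1d1, which sulfates dopamine and other phenols, rose with AP20187, by 0.76 ± 0.19 and 0.47 ± 0.14 on its 2 probe sets (limma, adjusted p = 0.0151 and 0.0316). On the first of these Sult1d1 had ratios of 2.34, 1.75, 1.30 and 1.72 in AP20187 livers, against 0.88, 0.91, 1.01 and 1.28 in untreated livers. The lowest treated array lay just above the highest untreated one, and the smaller rise of the second probe set did not pass without AP20187 replicate 2 or 4 or without untreated replicate 1, 2 or 4. Its neighbour Sult1b1, a thyroid hormone sulfotransferase, fell by 0.45 ± 0.09 (limma, adjusted p = 0.00556), a call lost after quantile normalization (limma, adjusted p = 0.0723). Sult1c2 fell by 0.85 ± 0.26 with overlapping groups (limma, adjusted p = 0.0359), and this call was lost without AP20187 replicate 2, 3 or 4, without untreated replicate 1 or 4, and after quantile normalization.

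Sult1e1, the third sulfotransferase of that run, was singled out after its values were seen. It had ratios of 3.12, 2.52, 0.36 and 1.23 in AP20187 livers, against 0.30, 0.79, 0.06 and 0.23 in untreated livers. AP20187 replicate 3 lay inside the untreated range and the other treated arrays above it. The change of 2.22 ± 0.79 did not pass (limma, adjusted p = 0.0621) but did so without AP20187 replicate 3 (2.82, limma, adjusted p = 0.0192) and without untreated replicate 2 (2.70, limma, adjusted p = 0.0363). Sult1a1, the main phenol sulfotransferase, stood at 0.34 ± 0.12 (limma, adjusted p = 0.0607) and passed as a rise after median centring, quantile normalization or robust variance moderation or without untreated replicate 1. Sult1c1, Sult2a2, Sult2b1, Sult3a1, Sult4a1 and Sult5a1 did not pass, at -1.31 to 0.67, and all had overlapping groups. Of these, Sult5a1 passed as a fall without AP20187 replicate 3 (-0.49, limma, adjusted p = 0.035) and Sult3a1 without untreated replicate 4 (-1.72, limma, adjusted p = 0.0467).

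**Figure D3:**
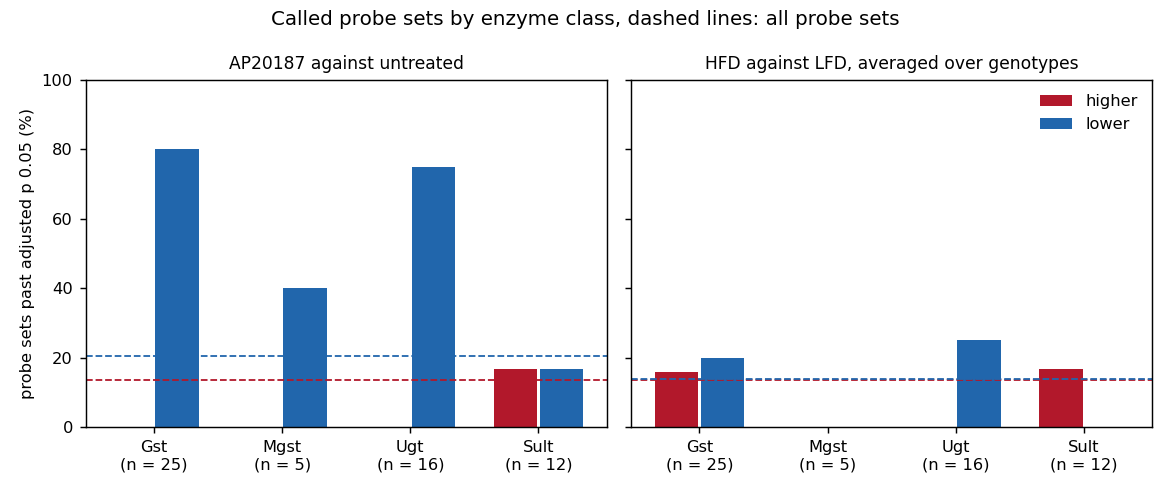
Share of the probe sets of each enzyme class that passed an adjusted p of 0.05 as higher (first bar) or lower (second bar), for AP20187 against untreated (left) and HFD against LFD averaged over genotypes (right); dashed lines give the shares over all probe sets. With AP20187 20 of 25 Gst and 12 of 16 Ugt probe sets were lower, where 20.4% of all probe sets were.

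The count of falls stayed close when the doubted arrays were set aside, while that of rises moved 2-fold. Without AP20187 replicate 3, 37 of the 58 fell and 4 rose, and without replicate 4, 33 fell and 1 rose. Over all 22626 probe sets, 4626 fell and 2922 rose without replicate 3, and 4074 fell and 2727 rose without replicate 4. In all, 33 of the 38 calls were made with each of the 8 arrays left out in turn. Markers of some cell types moved in the same comparison. For hepatocytes 18 of 25 probe sets fell and 3 rose, where 20.4% and 13.7% of all probe sets did so. Their summed ratios were 22.6 to 26.25 in AP20187 arrays and 37.79 to 42.51 in untreated arrays. For stellate cells and fibroblasts 11 of 16 fell, with sums of 13.61 to 14.29 in AP20187 arrays and 24.61 to 31.39 in untreated arrays. Macrophage probe sets fell in 6 of 11 cases and rose in 1, with sums of 8.73 to 11.20 in AP20187 arrays and 12.27 to 13.19 in untreated arrays, and no marker was listed at 0 in any array. Other lists moved less: 3 of 11 endothelial, 2 of 12 lymphocyte and 1 of 12 exocrine pancreas probe sets fell and none rose. No neutrophil or adipocyte probe set passed, and 1 of 7 cholangiocyte probe sets rose. The part of the marker shifts in the falls of the conjugation enzymes was not tested.

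Genes that supply or regulate conjugation were counted from lists, beside which 20.4% of all probe sets fell with AP20187 and 13.7% rose. For glutathione synthesis and recycling, 17 of 36 probe sets fell with AP20187 and 2 rose. Chac1, which degrades glutathione, rose by 3.17 ± 0.13, whereas Gclc, the rate-limiting enzyme of glutathione synthesis, fell by 1.34 ± 0.09 and Gsr, which regenerates reduced glutathione, by 1.25 ± 0.09 (limma, adjusted p = 4.56e-05, 8.83e-05 and 9.97e-05). Of the genes around UDP-glucuronate 10 of 17 probe sets fell and 1 rose: Galt fell by 1.18 ± 0.09 and Gusb, the lysosomal enzyme that removes glucuronic acid, by 0.94 ± 0.10, while Gys2, liver glycogen synthase, rose by 1.02 ± 0.09 (limma, adjusted p = 9.97e-05, 0.000402 and 0.000183). Of the genes around PAPS 5 of 15 fell and 1 rose, with Papss1, a PAPS synthase, falling by 0.94 ± 0.11 (limma, adjusted p = 0.00059). Bpnt1, which removes the spent donor, fell by 0.84 ± 0.12, and Suox, which makes sulfate from sulfite, by 1.06 ± 0.09 (limma, adjusted p = 0.00101 and 0.000129).

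Xenobiotic sensors and their partners went the other way, with 19 of 33 probe sets higher after AP20187 and 2 lower. Over all probe sets 13.7% rose and 20.4% fell. Nr1h4, the bile acid receptor FXR, rose by 1.80 ± 0.08, Nr1i2, the pregnane X receptor, by 1.35 ± 0.08 and Bach1, a repressor at antioxidant response elements, by 1.72 ± 0.10 (limma, adjusted p = 4.56e-05, 7.65e-05 and 7.65e-05). Among the listed cytochrome P450 genes 15 of 31 probe sets fell and 4 rose. The 3 probe sets of Cyp2b10, a classical target of the constitutive androstane receptor, rose by 3.06 to 3.21. Of the transporters that carry conjugates and bile acids 15 of 33 fell and 2 rose, with the bile acid importer Slc10a1 falling by 1.24 ± 0.09, the bile salt pump Abcb11 by 1.02 ± 0.08 and the organic anion importer Slco1a1 by 1.0 ± 0.09 (limma, adjusted p = 9.97e-05, 0.000102 and 0.000152). The other conjugation enzymes fell in 15 of 38 and rose in 5, led by Nnmt, the nicotinamide methyltransferase, at 3.34 ± 0.16 (limma, adjusted p = 5.74e-05), with Cyb5r3 and Aox1 falling by 0.99 ± 0.07 and 1.31 ± 0.10 (limma, adjusted p = 9.97e-05 and 0.000104). As a check of the treatment, 11 of 16 probe sets of stress pathway genes rose and none fell, Atf3 by 4.32 ± 0.25 and Fgf21 by 4.54 ± 0.27 (limma, adjusted p = 7.52e-05 and 7.65e-05).

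The diet experiment asked how the same enzymes respond to HFD with and without the Alb::GC transgene. With both genotypes averaged, 9 of the 58 probe sets fell and 6 rose with HFD, where 14% and 13.5% of all probe sets did so, 27.5% in all, and the arrays of the 2 diets did not overlap in 15 of them, where 28.8% of all probe sets did not. These shares are near the background. The median change was -0.15 over the 58 and -0.07 over all probe sets. The 4 falls of Ugt2b37, Ugt2b38, Gsta2 and Gstm6 and the 2 rises of Sult1d1 were called with each of the 8 arrays left out in turn, and the other 9 calls were each lost without at least 1 array. Leaving out LFD wildtype replicate 2 leaves 1 array in that group, and calls then became fewer over all probe sets. Gsta4 joined the falls in that fit at -0.61, and with all arrays it stood at -0.47 (limma, adjusted p = 0.0734).

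Ugt2b38 and Ugt2b37 changed most. Ugt2b38 had ratios of 0.57 and 0.59 in HFD Alb::GC livers, 0.16 and 0.33 in HFD wildtype livers, 3.5 and 6.13 in LFD Alb::GC livers and 11.79 and 4.66 in LFD wildtype livers. Every HFD array lay below every LFD array, and Ugt2b38 fell, with changes of -3.81 ± 0.36 over both genotypes, -2.89 ± 0.51 in Alb::GC and -4.72 ± 0.51 in wildtype (limma, adjusted p = 0.00267, 0.0318 and 0.00722). Ugt2b37 had ratios of 1.18 and 0.62 in HFD Alb::GC livers, 0.11 and 0.17 in HFD wildtype livers, 6.12 and 6.02 in LFD Alb::GC livers and 2.47 and 2.53 in LFD wildtype livers. The diets were again fully apart, with changes of -3.26 ± 0.21 over both genotypes, -2.75 ± 0.30 in Alb::GC and -3.76 ± 0.30 in wildtype (limma, adjusted p = 0.00116, 0.0111 and 0.0044). Without LFD wildtype replicate 2 the averaged changes were -4.14 for Ugt2b38 and -3.25 for Ugt2b37, and both passed. The low values of HFD wildtype livers approach the offset of 0.05 added before log2, so these folds are understated.

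**Figure D4:**
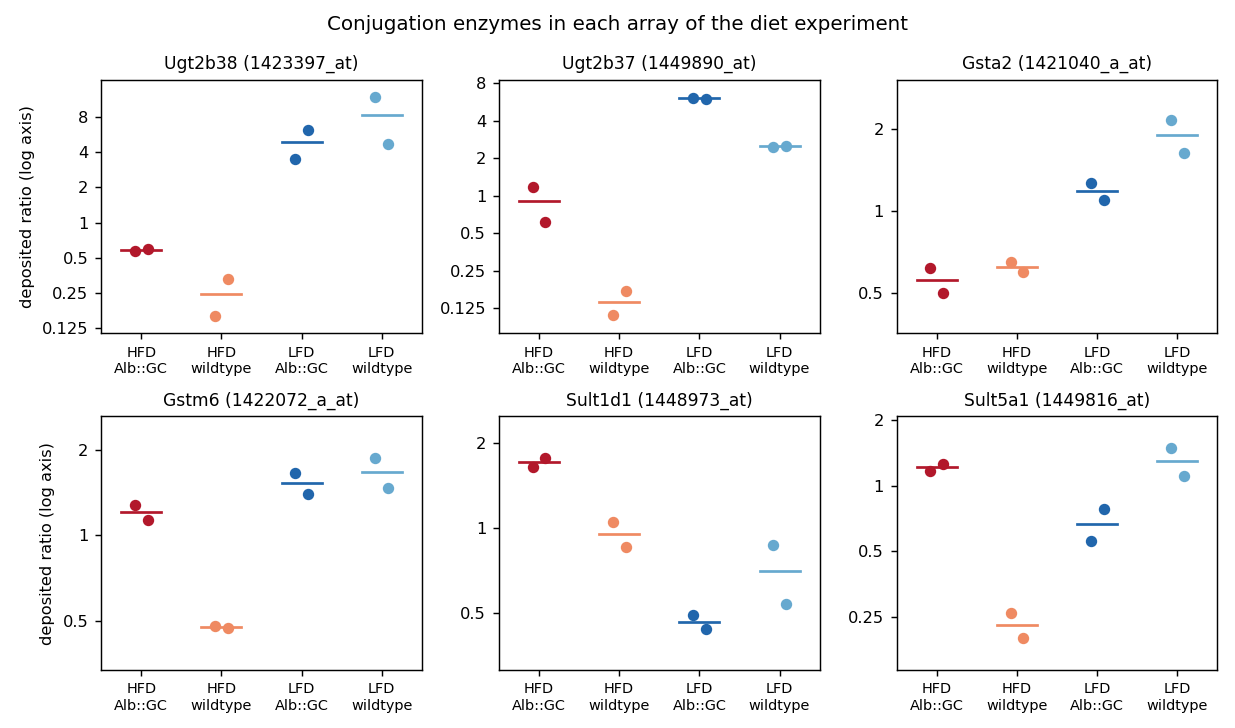
Deposited ratios (y axis, log scale, a different range in each panel) of 6 probe sets in the diet experiment, with the 2 arrays of each group as points and their mean as a line, for HFD Alb::GC, HFD wildtype, LFD Alb::GC and LFD wildtype from left to right. Ugt2b38 and Ugt2b37 are low in all HFD arrays, Sult1d1 is highest in HFD Alb::GC, and Gstm6 and Sult5a1 are low only in HFD wildtype, at 0.47 to 0.48 and 0.20 to 0.26.

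Other members of the Ugt2 family changed less. Ugt2b34 fell by 0.67 ± 0.14 on 1 of its 2 probe sets and stood at -0.16 ± 0.14 on the other (limma, adjusted p = 0.0203 and 0.401), and Ugt2b5 fell by 0.35 ± 0.10 (limma, adjusted p = 0.0414). Ugt2b1 and Ugt2a3 did not pass, at -0.45 ± 0.15 and 0.31 ± 0.15 (limma, adjusted p = 0.0641 and 0.164). The 3 Ugt1a probe sets stood between -0.03 and 0.04, none of the Ugt3 or Ugt8 probe sets passed, and the smallest p among these was that of Ugt3a1 at -0.33 ± 0.11 (limma, adjusted p = 0.0766).

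The alpha class split. Gsta2 had ratios of 0.62 and 0.50 in HFD Alb::GC livers, 0.65 and 0.60 in HFD wildtype livers, 1.27 and 1.10 in LFD Alb::GC livers and 2.17 and 1.63 in LFD wildtype livers. It was lower in all HFD arrays, by 1.27 ± 0.15 (limma, adjusted p = 0.00429), and a probe set outside the rule that is annotated to Gsta1, Gsta2 and Gm3776 together fell by 0.71 ± 0.18 (limma, adjusted p = 0.0312). Gsta3 went up: its ratios were 1.31 and 1.18 in HFD Alb::GC livers, 1.48 and 1.39 in HFD wildtype livers, 0.87 and 0.92 in LFD Alb::GC livers and 1.03 and 0.88 in LFD wildtype livers. This rise of 0.51 ± 0.10 passed (limma, adjusted p = 0.0158), and the second Gsta3 probe set stood at 0.56 ± 0.21 and missed the threshold (limma, adjusted p = 0.0888). Gstt3 rose by 0.57 ± 0.13, Gstz1 by 0.47 ± 0.12 and Gsto1 on 1 of 2 probe sets by 0.66 ± 0.12 (limma, adjusted p = 0.0247, 0.0308 and 0.0143).

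Gstm probe sets fell in 3 of 12 cases with HFD, those of Gstm6, Gstm4 and 1 of 4 for Gstm1. Without LFD wildtype replicate 2 both Gstm3 probe sets also passed as falls, at -0.94 and -0.81. Gstm6 had ratios of 1.28 and 1.13 in HFD Alb::GC livers, 0.48 and 0.47 in HFD wildtype livers, 1.65 and 1.4 in LFD Alb::GC livers and 1.87 and 1.47 in LFD wildtype livers. HFD arrays lay below LFD arrays throughout, the wildtype ones far below. The averaged fall was 1.01 ± 0.12 for Gstm6, 0.63 ± 0.14 for Gstm4 and 0.37 ± 0.10 for Gstm1 (limma, adjusted p = 0.00437, 0.0226 and 0.0384). Gstp3 fell by 0.47 ± 0.11 (limma, adjusted p = 0.023). The averaged call of Gstm4 was lost without any 1 of the Alb::GC arrays or without HFD wildtype replicate 1, and that of Gstm1 without any array but LFD wildtype replicate 2. Gsto1 lost its call without HFD wildtype replicate 1, and Gsta3 without that array or HFD Alb::GC replicate 1. The call of Ugt2b5 was lost without any 1 of the 8 arrays, that of Gstp3 without any but LFD Alb::GC replicate 1, that of Gstz1 without any but LFD Alb::GC replicate 2, and that of Gstt3 without any but these 2: LFD Alb::GC replicate 2 and HFD wildtype replicate 2. Ugt2b34 lost its call without any 1 of the 4 HFD arrays or without LFD Alb::GC replicate 1.

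Sult1d1 was the sulfotransferase that rose with HFD. On its probe set with the larger change it had ratios of 1.65 and 1.78 in HFD Alb::GC livers, 1.05 and 0.86 in HFD wildtype livers, 0.49 and 0.44 in LFD Alb::GC livers and 0.87 and 0.54 in LFD wildtype livers. HFD Alb::GC arrays were the highest and LFD Alb::GC arrays the lowest, and the wildtype arrays of the 2 diets overlapped slightly. The rises were 1.11 ± 0.19 and 1.03 ± 0.16 over both genotypes (limma, adjusted p = 0.0115 and 0.00885). Within Alb::GC they were 1.78 ± 0.27 and 1.55 ± 0.23 (limma, adjusted p = 0.0224 and 0.0212), and within wildtype they stood at 0.44 and 0.51 without passing (limma, adjusted p = 0.296 and 0.172). Their difference between the genotypes, 1.34 and 1.04, did not pass either (limma, adjusted p = 0.3 and 0.34). No other Sult probe set passed in the average, and Mgst2, at -0.91 ± 0.30, was the microsomal enzyme with the smallest p (limma, adjusted p = 0.07).

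Within wildtype mice, 12 of the 58 fell and 2 rose with HFD, where 6.63% and 7.97% of all probe sets did so, 14.6% in all. The 2 arrays of each diet did not overlap in 39 of the 58, where 62.7% of all probe sets did not. Beside Ugt2b38, Ugt2b37, Gsta2 and Gstm6, which fell by 1.70 ± 0.17 there, the largest falls were those of Sult2b1 and Sult5a1. Sult5a1 had ratios of 0.26 and 0.20 in HFD wildtype livers, against 1.49 and 1.11 in LFD wildtype livers, and fell by 2.26 ± 0.30 (limma, adjusted p = 0.0113). Sult2b1, which sulfates cholesterol, had 0.19 and 0.51 in HFD wildtype livers, against 1.76 and 4.41 in LFD wildtype livers, and fell by 2.95 ± 0.53 (limma, adjusted p = 0.0214). Both genes had clearly separate diets in wildtype mice. Sult1b1 fell by 0.98 and Ugt2b1 by 0.94 (limma, adjusted p = 0.0299 and 0.0344), and the rises were those of Gsto1 by 1.0 ± 0.18 and Gsta3 by 0.57 (limma, adjusted p = 0.0206 and 0.0455).

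These wildtype calls rest on 2 arrays a diet. Leaving out any 1 of them leaves 1 array in its group, and calls then became fewer over all probe sets as well as among the 58. No call of the 58 held without HFD wildtype replicate 1 or without replicate 2. Of the 14 calls, 7 were made without LFD wildtype replicate 1 and 6 without replicate 2. Without replicate 1 the falls of Gstm7, Gstp1, Sult1b1, Ugt2b1, Ugt2b34 and Ugt2b5 and the rise of Gsta3 were lost. Without replicate 2 the falls of Sult2b1, Sult1b1, Ugt2b1, Gstp1, Ugt2b34 and Ugt2b5 and both rises, of Gsto1 and Gsta3, were lost. The 1 rise then called was that of Sult3a1 at 3.77, which stood at 2.25 with all arrays and did not pass (limma, adjusted p = 0.0324 without that array). Within Alb::GC mice 3 of the 58 fell and 2 rose, where 2.13% and 4.64% of all probe sets did so, 6.77% in all. The diets did not overlap in 39 of the 58, where 60% of all probe sets did not. They were Ugt2b38, Ugt2b37, Gsta2, which fell by 1.02 ± 0.21 (limma, adjusted p = 0.0434), and both probe sets of Sult1d1. None of these calls held without any 1 of LFD Alb::GC replicate 1, LFD Alb::GC replicate 2 and HFD Alb::GC replicate 2. Most of them were also lost without HFD Alb::GC replicate 1 or without either HFD wildtype array. Each of these fits leaves 1 array in a group, and calls became fewer over all probe sets as well.

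Alb::GC and wildtype livers on the same diet did not differ past the threshold at any member. On LFD 0% of all probe sets passed in either direction, and on HFD 0.0354% were higher and 0.0972% lower in Alb::GC. An unadjusted p under 0.05 was found for 17 of the 58 members on each diet (29.3%), where 10.3% of all probe sets on LFD and 11.2% on HFD had one. On HFD the smallest p-values were those of Ugt2b37, Gstm6, Sult5a1, Gsto1 and Gstm7, with Alb::GC above wildtype by 2.28 ± 0.30, 1.25 ± 0.17 and 2.18 ± 0.30 in Ugt2b37, Gstm6 and Sult5a1 (limma, adjusted p = 0.0717, 0.0719 and 0.0719). Sult5a1 had ratios of 1.17 and 1.26 in HFD Alb::GC livers, against 0.26 and 0.20 in HFD wildtype livers. The probe set of Gstm7 with the larger AP20187 fall had 1.44 and 1.37 in HFD Alb::GC livers, against 0.72 and 0.76 in HFD wildtype livers, a difference of 0.88 ± 0.18 (limma, adjusted p = 0.138), while its other probe set stood at -0.10 ± 0.14. The Gsto1 probe set that rose with HFD was lower, with 0.97 and 0.92 in HFD Alb::GC livers, against 1.91 and 1.78 in HFD wildtype livers (-0.93 ± 0.18, limma, adjusted p = 0.121).

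On LFD the smallest p-values belonged to Mgst3, Ugt2b37, Gstp1, Sult1c2 and Gstt3, at -2.25 ± 0.34, 1.26 ± 0.30, -0.54 ± 0.13, -0.81 ± 0.20 and -0.57 ± 0.18 for Alb::GC minus wildtype (limma, adjusted p = 0.143, 0.282, 0.282, 0.312 and 0.401). On that Mgst3 probe set the ratios were 0.57 and 0.53 in LFD Alb::GC livers, against 2.76 and 2.84 in LFD wildtype livers, but the other Mgst3 probe set stood at 0.00 ± 0.24. The 3 Ugt1a probe sets lay lower in both Alb::GC arrays than in both wildtype arrays of the same diet, by -0.35 to -0.22 on LFD and -0.26 to -0.23 on HFD, and none passed. Non-overlap of 2 against 2 arrays was common, at 38.7% of all probe sets on LFD and 46.5% on HFD, against 33 and 42 of the 58 members.

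The diet response itself was compared between genotypes as an interaction (the HFD change in Alb::GC minus that in wildtype). It passed at none of the 58 members, as at 0% of all probe sets, and 19 of the 58 (32.8%) had an unadjusted p under 0.05, where 11.1% of all probe sets did. The smallest p-values were those of Sult5a1 at 3.09 ± 0.43, Gstm6 at 1.38 ± 0.24, Gstm7 at 1.29 ± 0.25, Sult2b1 at 3.69 ± 0.74 and Gstp1 at 0.78 ± 0.18 (limma, adjusted p = 0.133, 0.145, 0.179, 0.192 and 0.221). In each of these 5 probe sets the wildtype change was negative and the Alb::GC change higher. The other Gstm7 probe set had 0.95 and 0.91 in HFD Alb::GC livers and 1.01 and 0.99 in HFD wildtype livers. On LFD it had 0.96 and 1.03 in Alb::GC livers and 1.18 and 1.04 in wildtype livers. Of the 58 interaction values 39 were positive, against 55.9% of all probe sets, and among them were all 8 of the Ugt2 family, at 0.24 to 1.83.

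Supply and sensor lists were also counted under HFD, with which 13.5% of all probe sets rose and 14% fell. Around UDP-glucuronate 9 of 17 probe sets rose and 1 fell, with Gys2 rising by 1.43 ± 0.11 and Ugp2, which makes UDP-glucose, by 1.06 ± 0.10 (limma, adjusted p = 0.00143 and 0.0028). Around PAPS 6 of 15 rose and 2 fell, with Papss2, the second PAPS synthase, rising by 1.49 ± 0.14 and the sulfate transporter Slc26a1 by 1.25 ± 0.19 (limma, adjusted p = 0.00276 and 0.00852). Among the sensors 17 of 33 rose and 0 fell, led by Ppargc1a at 2.33 ± 0.18, Mafg at 1.61 ± 0.17 and Nr1h4 at 1.12 ± 0.12 (limma, adjusted p = 0.00171, 0.00332 and 0.00339). Glutathione synthesis and recycling had 4 rises and 2 falls among 36, and Cth, which makes cysteine from cystathionine, rose by 1.03 ± 0.13 (limma, adjusted p = 0.00489). Other conjugation enzymes rose in 14 of 38 and fell in 3, with Nnmt at 4.20 ± 0.22 (limma, adjusted p = 0.000796). The P450 list had 4 rises and 6 falls among 31, and the transporter list 7 rises and 5 falls among 33.

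Cell type markers were counted under HFD as well, averaged over genotypes, where 13.5% of all probe sets rose and 14% fell. Adipocyte probe sets rose in 3 of 8 cases and fell in 1, with summed ratios of 6.80 to 12 in HFD Alb::GC arrays, 70.38 to 73.33 in HFD wildtype arrays, 7.00 to 7.50 in LFD Alb::GC arrays and 6.04 to 8.18 in LFD wildtype arrays. The high sums came from part of the list. The median log2 ratio of the 8 probe sets was -0.058 and 0.175 in HFD wildtype arrays, against -0.324 and 0.291 in LFD wildtype arrays. Cidea, an adipocyte marker that also encodes a lipid droplet protein, rose by 4.20 ± 0.88 in the average (limma, adjusted p = 0.0201). In wildtype alone 3 of the 8 adipocyte probe sets rose and none fell, and in Alb::GC alone none rose and 1 fell. The highest change of any adipocyte probe set was 6.96 in wildtype and 1.44 in Alb::GC. Hepatocyte sums were 26.12 to 28.17 in HFD Alb::GC arrays, 26.29 to 26.60 in HFD wildtype arrays, 22.21 to 25.22 in LFD Alb::GC arrays and 25.42 to 27.11 in LFD wildtype arrays, with 5 of 25 probe sets higher and 7 lower. Exocrine pancreas probe sets fell in 4 of 12 cases, with sums of 9.08 to 10.32 in HFD Alb::GC arrays, 7.41 to 7.56 in HFD wildtype arrays, 12.66 to 13.05 in LFD Alb::GC arrays and 16.66 to 17.27 in LFD wildtype arrays. Endothelial probe sets rose in 4 of 11 cases, with sums of 12.92 to 14.44 in HFD Alb::GC arrays, 14.80 to 16.23 in HFD wildtype arrays, 10.45 to 10.96 in LFD Alb::GC arrays and 8.15 to 8.42 in LFD wildtype arrays. Neutrophil probe sets rose in 1 of 7 cases and fell in 2. In wildtype alone 3 rose with HFD, where 7.97% of all probe sets did, and in Alb::GC alone 1 fell, where 2.13% did. Their sums were 3.72 to 5.22 in HFD Alb::GC arrays, 12.95 to 15.31 in HFD wildtype arrays, 7.05 to 7.17 in LFD Alb::GC arrays and 5.83 to 7.42 in LFD wildtype arrays. In the average, 2 of 11 macrophage probe sets rose and none fell, and 3 of 16 stellate cell and fibroblast probe sets fell and none rose. Of 7 cholangiocyte probe sets 1 rose and 2 fell, and of 12 lymphocyte probe sets 1 rose and 1 fell. The part of these cell type markers in the diet and genotype results was not tested.

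Set side by side, the 2 experiments shared no array. Of the 36 probe sets that fell with AP20187, 6 also fell with HFD averaged over genotypes, which is 16.7% of the AP20187 falls and 66.7% of the 9 HFD falls. Of all 58 members 15.5% fell with HFD and 62.1% with AP20187, so these shares are near those of the members as a whole. In both experiments Sult1d1 rose on its 2 probe sets. A further 2 fell with AP20187 and rose with HFD, those of Gsta3 and Gstz1, and 3 fell with HFD without passing with AP20187, those of Ugt2b37, Ugt2b38 and Gsta2. Gstm4, which fell by 2.28 with AP20187, fell by 0.63 with HFD, and Ugt2b38, which fell by 3.81 with HFD, stood at -0.84 with AP20187. Among the members that passed, the largest change with AP20187 was that of Gstm4, and the largest changes with HFD were those of Ugt2b38 and Ugt2b37.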

How the data were processed

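Liver RNA was measured on 16 arrays in 2 experiments of 8, and the values used are the deposited ratios, made by the authors from the scanned arrays and each near 1 in an array's median. Neither the software nor what the ratio is taken against is given in the sources used here, and depth or detection cannot be read from a ratio; the number of arrays limits the precision. All deposited sample columns were used (0 left out), and groups followed the descriptions in the labels. The platform annotation named the probe sets.

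The 64 control probe sets were left out, 0.05 was added to each ratio, and log2 values were tested with limma 3.58.1 in R 4.3.3 (lmFit, eBayes with a trend), with Benjamini-Hochberg adjustment over 22626 probe sets and a threshold of 0.05. The AP20187 fit held 8 arrays in 2 groups, and the diet fit held 8 arrays in 4 groups with 1 shared spread. The scripts were tested on simulated data. Promoter windows and gene order came from RefSeq tables of GRCm38.p6 and were read with Python 3.11.15.

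Genes were named by a rule: in each comparison the 8 largest rises and 8 largest falls among calls without overlap, the smallest p of each family, the 5 smallest p where under 5 passed, and the 3 smallest p of each other list. Members and lists were chosen with earlier results of these data known. Alternatives covered the offset, rescaling, variance moderation, a filter on low values, probe set choice, the arrays fitted and each array left out.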

Additional observations from a re-analysis of the deposited data

Results flagged for a closer look

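In 5 of 116 tests over groups of 4 arrays, 1 array stood far from the other 3 (Dixon's test). Chance gives about 1 in 20 such groups, so this number is near chance. Gsta4 had a ratio of 1.13 in AP20187 replicate 1, against 0.99 to 1.01 in the other AP20187 arrays. A Gstm1 probe set had 0.96 in AP20187 replicate 3, against 0.66 to 0.70 in the others, and Gsta2 had 0.50 in the same array, against 0.99 to 1.01. The Mgst1 probe set that pointed upward with AP20187 had 0.11 in untreated replicate 1, against 0.74 to 0.95 in the other untreated arrays. The first Ugt3a1 probe set had 2.41 in untreated replicate 4, against 1.90 to 1.96 in the others.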

How the results depend on the processing

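No paired analysis was possible because the labels give no numbers that pair arrays across groups. With AP20187, 2 rises were called among the 58 members; median centring gave 4, 1 probe set a gene gave 1, and leaving out each array gave 1 to 4. The 36 falls became 32 to 37 with each array left out and 30 after quantile normalization. For HFD in wildtype, the 2 rises became 1 after quantile normalization, without a trend, with robust moderation or with 1 probe set a gene, 0 with only the 4 arrays compared, and 0 to 1 with each array left out. The 12 falls became 4 with only the 4 arrays compared and 0 to 9 with each array left out. For HFD in Alb::GC, the 2 rises became 1 with robust moderation, 0 with only the 4 arrays compared and 0 to 2 with each array left out, and the 3 falls became 1 after quantile normalization, 0 with only the 4 arrays compared and 0 to 3 with each array left out. Averaged over genotypes, leaving out each array gave 2 to 6 rises (6 with all arrays) and 4 to 10 falls (9 with all arrays). Genotype and interaction contrasts gave 0 called members under every setting run. The change of Sult4a1 with AP20187 (0.12) turned to -0.04 without untreated replicate 3 and to -0.10 without AP20187 replicate 3, and that of Sult3a1 with HFD (0.47) turned to -0.29 without LFD wildtype replicate 1. With each array left out these ranged from -0.10 to 0.33 and from -0.29 to 1.22, none passed, and the cause was not tested. Over all probe sets, calls with HFD in wildtype and averaged over genotypes also became fewer with each array left out. In Alb::GC this held for all arrays but those of LFD wildtype. Rescaling moved the AP20187 median of all probe sets to -0.06 (quantile) or -0.08 (median centring), against -0.13. The authors' ratios hold no signal over background, so what detection limits was not tested.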

Other observations

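Genes next to the 2 clusters were looked at after the clusters' values were seen. Beside the Gstm run, Csf1, a macrophage growth factor, rose with AP20187 by 1.41 ± 0.16 and 1.41 ± 0.18 on 2 of its 4 probe sets (limma, adjusted p = 0.00045 and 0.000801), while the other two stood at 0.03 and 0.43. Eps8l3, Gnat2 and Ampd2 stood at -0.33 to -0.07 and did not pass, and Ahcyl1 fell by 0.33 ± 0.10 on 1 of 3 probe sets (limma, adjusted p = 0.038). No gene within 3 on either side of the Gstm run that was measured fell by as much as any Gstm probe set, the smallest Gstm fall being 0.65.

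Beside the run of Ugt2 and Sult1 genes, Ythdc1, a reader of methylated RNA, rose with AP20187 on both probe sets, by 0.57 ± 0.14 and 0.61 ± 0.17 (limma, adjusted p = 0.0121 and 0.0279). The casein gene Csn1s2a fell by 2.0 ± 0.54 and by 1.9 ± 0.57 on 2 of its 4 probe sets (limma, adjusted p = 0.0227 and 0.0325), and Csn1s1 and Csn2 did not pass. With HFD, Eps8l3 fell by 0.65 ± 0.16 (limma, adjusted p = 0.0307), 2 of 3 Ahcyl1 probe sets rose by 0.64 each (limma, adjusted p = 0.0456 and 0.0237), 1 of 2 Ampd2 probe sets rose by 0.68 ± 0.18 (limma, adjusted p = 0.038) and 1 of 4 Csn1s2a probe sets fell by 0.89 ± 0.21 (limma, adjusted p = 0.0263). The other measured neighbours did not pass with HFD.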
